A study of Homo sapiens with 2 samples.

Results

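The KLF, SP and EGR genes encode zinc-finger transcription factors, and 31 of them (18 KLF, 9 SP and 4 EGR genes) were taken as listed and matched by Ensembl identifier to the GENCODE annotation of GRCh37. Of these, 29 were found among the 57736 genes of the count table. KLF14 and KLF18 were not analysed here, because their identifiers in this annotation matched none of those counted. RNA-Seq was done on 1 library of parental control A1847 cells, a line from a human ovarian cancer that expresses CARM1, and on 1 library of CARM1 knockout (CARM1 KO) A1847 cells. The knockout was made by CRISPR with a single guide RNA carried by a lentivirus, and the CARM1 KO cells are 1 clone, so loss of CARM1 and the choice of the clone cannot be told apart. Both were labelled with the same cell line and grown in the same serum-containing medium, and neither label names a drug. The comparison asks which members differ between cells with and without CARM1, an arginine methyltransferase that modifies chromatin proteins. With 1 library per group no difference has a replicate check, so no P value is given and every comparison is between these libraries.

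The members share an array of C2H2 zinc fingers near the carboxyl end. SP and KLF proteins use it to bind GC boxes and CACCC boxes, and EGR proteins bind a related GC-rich site. SP1 and SP3 are made in nearly all cells, while most KLF genes are restricted to certain tissues and many change when cells stop dividing or differentiate. KLF5 and KLF4 are best known from epithelia, and EGR1 is switched on within minutes of growth factor stimulation through serum response factor, which binds CArG boxes in its promoter.

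The sequences that carry these features are shown for KLF5, KLF6 and KLF12, whose whole intervals lay past 3-fold upwards, for KLF9 as a lower KLF gene, and for EGR1 beside EGR2. Each is the stretch of 250 bases upstream of the canonical start site in GRCh37, written 5′ to 3′ on the strand of the gene. In the KLF genes capitals mark GC boxes (GGGCGG) and CACCC boxes (CACCC) on either strand, which can overlap by a few bases. In the EGR genes capitals mark CArG boxes.
KLF5 (chr13:73632893-73633142, plus strand): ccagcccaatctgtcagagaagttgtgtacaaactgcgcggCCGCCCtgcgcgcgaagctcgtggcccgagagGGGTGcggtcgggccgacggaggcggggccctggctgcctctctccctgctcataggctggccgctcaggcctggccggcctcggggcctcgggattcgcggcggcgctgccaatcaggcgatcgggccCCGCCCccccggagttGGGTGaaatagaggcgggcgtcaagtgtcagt
KLF6 (chr10:3827402-3827651, minus strand): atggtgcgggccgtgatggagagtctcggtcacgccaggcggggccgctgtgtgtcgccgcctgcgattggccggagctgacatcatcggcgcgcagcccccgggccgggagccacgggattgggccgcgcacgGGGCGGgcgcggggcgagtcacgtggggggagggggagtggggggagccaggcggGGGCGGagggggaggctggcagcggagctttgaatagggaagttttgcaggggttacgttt
KLF12 (chr13:74708542-74708791, minus strand): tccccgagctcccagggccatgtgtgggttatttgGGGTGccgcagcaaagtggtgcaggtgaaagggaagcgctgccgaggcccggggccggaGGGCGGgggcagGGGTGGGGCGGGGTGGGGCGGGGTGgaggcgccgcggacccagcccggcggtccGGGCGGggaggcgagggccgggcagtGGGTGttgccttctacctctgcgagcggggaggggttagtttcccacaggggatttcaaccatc
KLF9 (chr9:73029574-73029823, minus strand): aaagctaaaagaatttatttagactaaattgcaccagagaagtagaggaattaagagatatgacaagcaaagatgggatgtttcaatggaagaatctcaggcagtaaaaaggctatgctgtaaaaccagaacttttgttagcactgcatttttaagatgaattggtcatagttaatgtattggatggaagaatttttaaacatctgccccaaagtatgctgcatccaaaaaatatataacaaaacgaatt
EGR1 (chr5:137800918-137801167, plus strand): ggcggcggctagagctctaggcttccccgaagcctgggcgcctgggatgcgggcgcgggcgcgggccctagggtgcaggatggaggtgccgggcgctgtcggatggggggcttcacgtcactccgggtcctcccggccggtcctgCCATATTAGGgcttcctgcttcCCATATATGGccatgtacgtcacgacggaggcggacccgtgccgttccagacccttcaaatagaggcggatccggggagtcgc
EGR2 (chr10:64576127-64576376, minus strand): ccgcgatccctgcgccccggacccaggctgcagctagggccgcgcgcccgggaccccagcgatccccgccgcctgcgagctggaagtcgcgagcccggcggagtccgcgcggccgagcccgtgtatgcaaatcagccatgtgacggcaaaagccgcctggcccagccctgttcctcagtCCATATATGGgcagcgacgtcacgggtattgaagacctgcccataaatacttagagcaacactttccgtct

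The upstream stretches of the members held these motifs in a larger share than those of protein-coding genes in general, except for the CACCC box, and the differences were not tested. A GC box was found in 71.0% of the 31 members and in 58.6% of 20162 protein-coding genes, and an EGR site (GCGNGGGCG, either strand, which can overlap a GC box) in 35.5% and 12.5%. A CACCC box was found in 48.4% and 58.7%, and the CRE half-site TGACG in 35.5% and 25.3%. CArG boxes were found in 3 members, EGR1, EGR2 and EGR3, and in 1.12% of all genes. EGR1 held 2 of them, at 105 to 96 and at 83 to 74 bases upstream of the start. The upstream stretch of KLF12 held 4 GC boxes and 5 CACCC boxes. KLF9 had the lowest GC content of the members, 32.4% against a median of 68.8%, and held neither box. KLF15, the other lower KLF gene, had 80.4% and 6 GC boxes, and SP5, a higher member, had 45.6% and neither box. A link between these motifs and the direction of a member was not tested. The median GC content over all protein-coding genes was lower, 63.2%, and the motif shares were not adjusted for GC content. A match of letters is a description of the window and not a site of binding.

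CARM1, the targeted gene, had 975 and 380 reads and was 2.63-fold lower (95% interval 2.33 to 2.97), which did not reach a 3-fold difference. Here and below the parental control is given first. The study presents the CARM1 knockout at the protein level and reports decreased methylation of BAF155, a CARM1 substrate. Read counts measure neither. The libraries held 30741953 and 32300391 reads. A member was called when its TMM-scaled level differed more than 3-fold, the fold threshold of the study, and the libraries summed to at least 10 reads. Intervals are exact 95% binomial intervals and cover counting error only. In bulk RNA, fewer cells of a type and less RNA per cell cannot be told apart. Of the ovarian and epithelial markers EPCAM, KRT7, KRT8, KRT18, KRT19, PAX8, MUC16, WT1 and MSLN, 5 of the 7 tested were higher in CARM1 KO cells and 1, KRT19, was lower, and their summed level was 347 in parental and 1083 in CARM1 KO cells, in RPKM (reads per kilobase of merged exons, scaled to the depth of the library). KRT7, KRT8 and KRT18 held most of both sums, at 35.5, 82.1 and 221 in parental and 209, 321 and 523 in CARM1 KO cells. MUC16 had 0 and 1 reads, and WT1 had 8 and 1. Of 6 fibroblast markers, 4 were lower and 1, COL1A1, was higher, and their summed level was 54.7 in parental and 2.53 in CARM1 KO cells. COL1A2 alone made up 49.7 of the parental sum, with 16732 and 3 reads, and PDGFRB was nearly level, with 132 and 142 reads. The endothelial and erythroid markers summed to at most 0.147 in either library, with CDH5, HBB, HBA2 and GATA1 at 0 reads in both. Of the leukocyte markers CD68 was 4.01-fold higher, while PTPRC had 6 and 0 reads and CD3E none. The part of these marker differences in the results was not tested.

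KLF5, KLF6, KLF12 and KLF4 stood higher in CARM1 KO cells, EGR1, KLF9 and KLF15 stood lower, and SP1 and SP3, the abundant members, were nearly level. Of the 29 members counted, 3 (KLF1, KLF17 and SP8) had 0 reads in both libraries, which allows up to 3 reads, and SP7, SP9 and EGR4 had under 10 reads in all. Among the 23 that remained, 6 were higher and 4 were lower in CARM1 KO cells and 13 were within 3-fold. The 10 called members are 43.5% of the 23, while 24.5% of all 18563 genes tested and 21.9% of the 14140 protein-coding genes tested were called. By direction, 26.1% of the members were higher, against 12.8% of all genes and 12.7% of protein-coding genes, and 17.4% of the members were lower, against 11.7% and 9.21%. At 2-fold, 9 members were higher and 5 lower, and 38.6% of all genes were called. The median log2 fold change was 0.53 over the 23 members and -0.03 over all genes tested. The median size of the log2 fold change, whatever its direction, was 1.32 over the members and 0.72 over all genes. The number of members is small, and no test sets these shares apart.

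**Figure D1:**
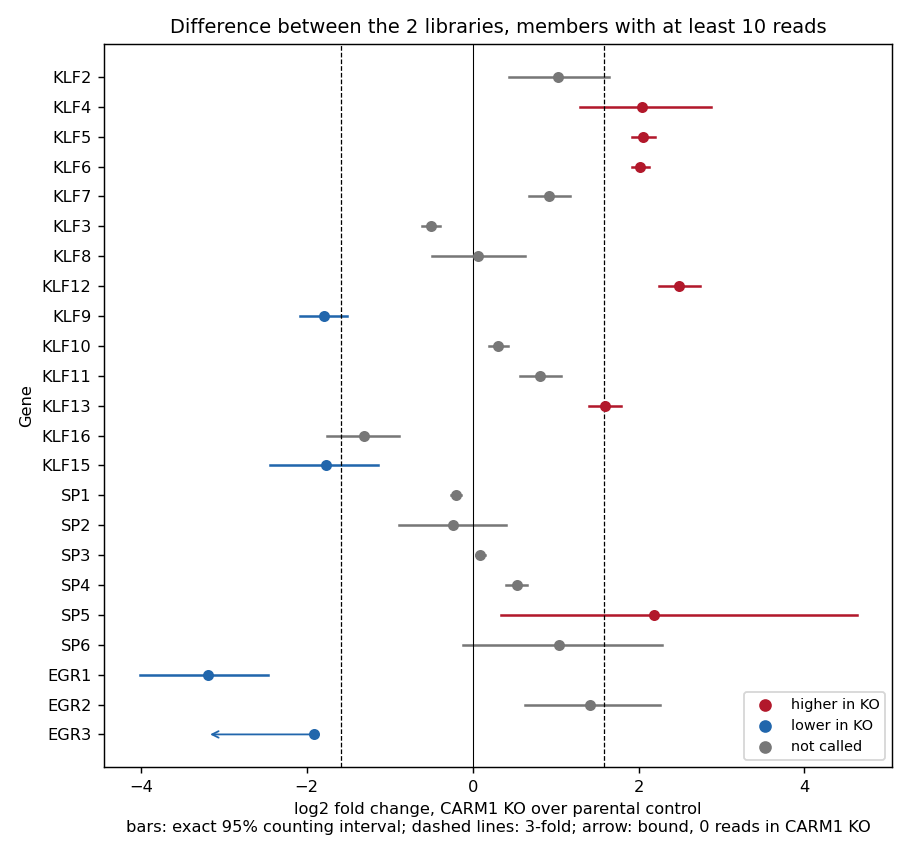
Log2 fold change of CARM1 KO over parental control cells for the 23 members with at least 10 reads, with exact 95% counting intervals as bars and 3-fold marked by dashed lines. KLF4, KLF5, KLF6, KLF12, KLF13 and SP5 lie past 3-fold on the right and EGR1, EGR3, KLF9 and KLF15 on the left, the intervals of KLF5, KLF6, KLF12 and EGR1 lie wholly past it, and the arrow marks EGR3, which had 0 reads in CARM1 KO cells.

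Among the KLF proteins that mainly activate transcription (KLF1, KLF2, KLF4, KLF5, KLF6 and KLF7), 3 of the 5 tested genes were called. All 5 had a higher scaled level in CARM1 KO cells. KLF5, a growth-promoting factor of epithelia, had 541 and 2305 reads. It was 4.16-fold higher in CARM1 KO cells (95% interval 3.79 to 4.58). The study lists KLF5, with the same read counts, among apoptosis-promoting targets of EZH2, a histone methyltransferase, that it found higher after CARM1 knockout. Binding of EZH2 was not analysed here. KLF6, an injury-responsive factor made in most cells, had 1007 and 4191 reads, which was 4.06-fold higher (95% interval 3.79 to 4.36). KLF5 and KLF6 thus differed by nearly the same factor, and their intervals overlapped. KLF4, a factor of differentiating epithelia and of reprogrammed stem cells, had 18 and 76 reads. Its fold change was 4.12 with an interval of 2.44 to 7.33 that reached below 3-fold, with few reads in both libraries.

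KLF2 and KLF7 of the same set lay under the threshold. KLF2, known from endothelial and resting T cells, had 36 and 75 reads, a 2.03-fold higher level in CARM1 KO cells (95% interval 1.35 to 3.12). KLF7, known from neurons, had 206 and 400 reads, which was 1.90-fold higher (95% interval 1.60 to 2.25). Both intervals lay above 1, so counting error alone does not cover the differences. KLF1, the erythroid member, had no reads, as did HBB and GATA1 of the erythroid markers.

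KLF3, KLF8 and KLF12 are repressors that recruit the corepressor CtBP, and they differed in unlike ways. KLF12 had 156 and 897 reads. It was 5.62-fold higher (95% interval 4.73 to 6.70), the largest difference upwards among the members called. KLF3, the most abundant of the set, had 1569 and 1135 reads, a 1.42-fold lower level (95% interval 1.31 to 1.53). KLF8 had 54 and 58 reads, and the interval of its fold change, 0.712 to 1.55, included 1. CTBP1 and CTBP2, the genes of the corepressor, had fold changes of 1.00 and 1.09.

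KLF9, KLF10, KLF11, KLF13 and KLF16 recruit the corepressor SIN3A, and here 1 of 5 was higher and 1 was lower. KLF9, a hormone-responsive factor linked to quiescence, had 453 and 134 reads. Its level was 3.46-fold lower in the KO library (95% interval 2.85 to 4.23). KLF13 had 299 and 922 reads and a fold change of 3.01 with an interval of 2.64 to 3.44, so it lay on the threshold, and it was not called when scaled by library size only or by the reads of protein-coding genes. KLF16 had 158 and 65 reads and was 2.49-fold lower (95% interval 1.85 to 3.38), under the threshold. KLF10 and KLF11, both known as early genes of TGF-beta signalling, were closer to level. KLF10 had 1137 and 1441 reads, a fold change of 1.24 (95% interval 1.14 to 1.34), and KLF11 had 210 and 378 reads, a fold change of 1.76 (95% interval 1.48 to 2.09). SIN3A was 0.811 times its parental level.

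KLF15, a regulator of glucose and amino acid metabolism, had 90 and 27 reads. It was 3.41-fold lower (95% interval 2.20 to 5.46), and the interval reached below 3-fold. KLF9 and KLF15 were thus the lower members of the KLF genes, and both are known as genes induced by glucocorticoids. KLF17, of early embryos, had no reads.

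Of the 6 SP genes tested, SP5 was called and the others lay within 3-fold. SP1, the founding member and a general activator at GC boxes, had 5075 and 4529 reads. Its level was 1.15-fold lower (95% interval 1.10 to 1.19). SP3, which binds the same boxes, had 5526 and 6036 reads, a fold change of 1.07 (95% interval 1.03 to 1.11). SP4, the third of the glutamine-rich members, had 823 and 1218 reads, a fold change of 1.45 (95% interval 1.32 to 1.58), and SP2 had 46 and 40 reads. None of SP1, SP2, SP3 and SP4 passed 3-fold. Whether the SP genes differ from the KLF genes in this respect was not tested.

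The developmental members SP5, SP6, SP7, SP8 and SP9 were near the limit of counting. SP5, a target of WNT signalling, had 3 and 14 reads, a ratio of 4.56 with an interval from 1.27 to 24.7. SP5 was called by its fold change, and it was not called with at least 50 reads required. SP6 had 10 and 21 reads, and the interval of its fold change, 0.924 to 4.88, included 1. SP7, the osteoblast factor, had 1 and 0 reads, SP8 had none, and SP9 had 1 and 5.

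EGR1 had 152 and 17 reads and was 9.15-fold lower (95% interval 5.53 to 16.1), the largest difference of any member. EGR3 had 11 and 0 reads and was 3.75-fold lower with the 0 set at a floor of 3 reads, a value that depends on this floor. The 95% counting interval of its ratio began lower, at 2.57-fold, under the threshold, and EGR3 was not called with at least 50 reads required. EGR2, which directs myelination in Schwann cells, had 19 and 52 reads and lay in the other direction, 2.67-fold higher (95% interval 1.55 to 4.79), under the threshold. The intervals of EGR1 and EGR2 did not overlap. EGR4 had 1 and 0 reads. EGR1, EGR2 and EGR3 each held at least 1 CArG box in the window printed above or, for EGR3, in the same window of its own gene.

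The calls depend on the error that is assumed. When the whole 95% interval had to lie past 3-fold, KLF5, KLF6 and KLF12 stayed higher and EGR1 stayed lower. With edgeR's exact test at a false discovery rate under 0.05, a fold change above 3 and an assumed biological coefficient of variation of 0.4, EGR1 was the 1 member called, and at 0.12 all members called by fold except SP5 were called.

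Levels between genes were compared per length, in RPKM computed from the counts. In parental cells the order of the highest members was SP1 at 20.2, SP3 at 10.5, KLF10 at 9.56, KLF3 at 7.44 and KLF6 at 5.27. In CARM1 KO cells KLF6 at 21.4 and KLF5 at 19.6 stood above SP1 at 17.6, followed by KLF10 at 11.8 and SP3 at 11.2. KLF5 moved from the 64.7th to the 88.3rd percentile of the genes tested, and KLF6 from the 66.7th to the 89.2nd. EGR1 moved from the 45.9th to the 17.2nd. With the length of the canonical transcript in place of merged exons, an alternative added after the values were seen, SP3 stood above KLF10 in CARM1 KO cells, and the other places among the highest members of both libraries were unchanged.

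**Figure D2:**
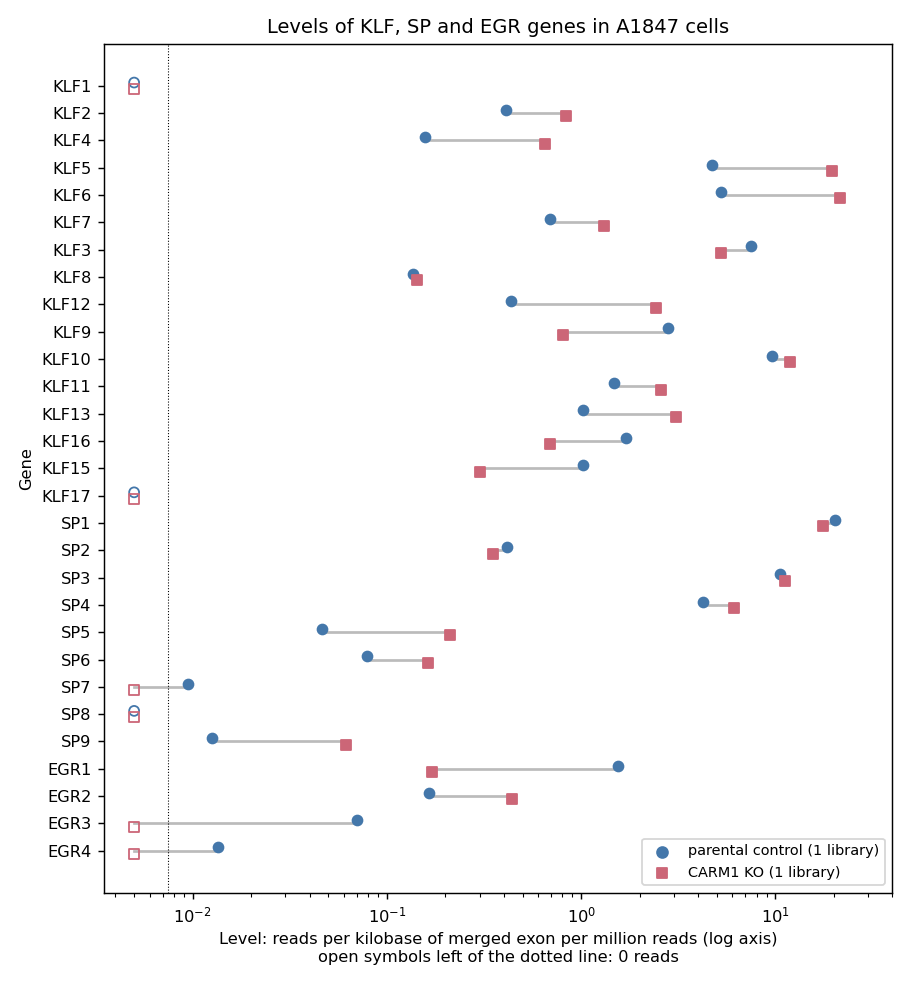
Level of each of the 29 members counted, in RPKM on a log axis, in parental control (circles) and CARM1 KO (squares) cells, with 1 library each and open symbols for 0 reads. KLF5 and KLF6 reach 19.6 and 21.4 in CARM1 KO cells beside SP1 at 17.6, while SP7, SP9 and EGR4 stay below 0.1 in both libraries.

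The make-up of the families followed these differences. KLF5 and KLF6 made up 12.8% and 14.3% of the summed per-length level of the KLF genes in parental cells, and 27.7% and 30.2% in CARM1 KO cells. KLF3 made up 20.2% and 7.41%, KLF10 25.9% and 16.7%, and KLF9 7.59% and 1.14%. The summed level of the KLF genes was 36.8 in parental and 71.0 in CARM1 KO cells, while that of the SP genes was 35.5 and 35.7. Within the EGR genes, whose summed level was 1.80 and 0.610, EGR1 made up 86.2% in parental and 27.9% in CARM1 KO cells and EGR2 9.12% and 72.1%. These shares rest on 183 and 69 EGR reads.

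**Figure D3:**
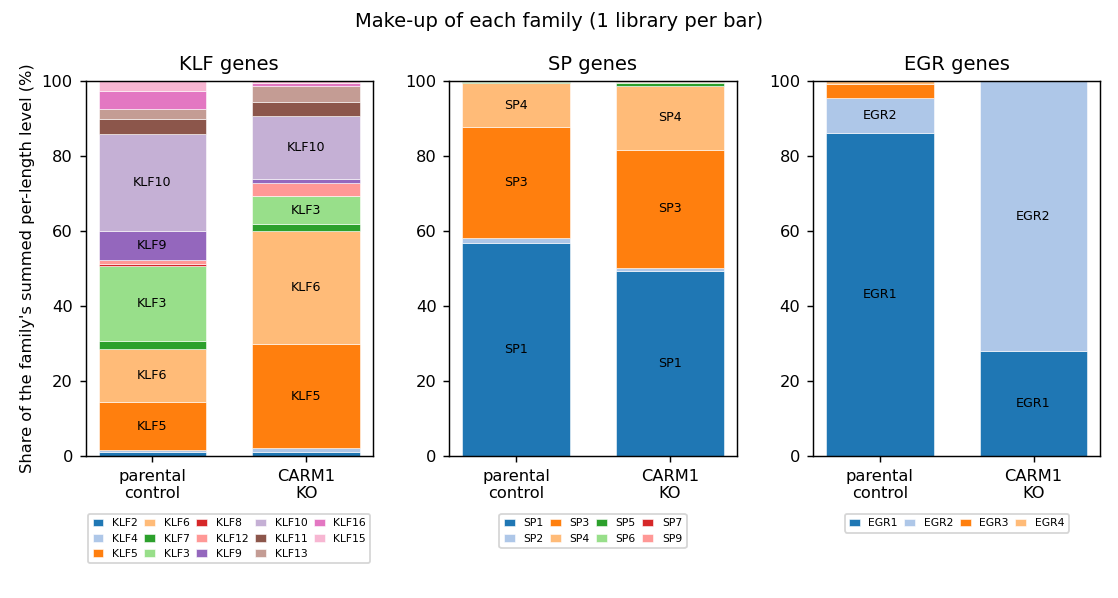
Share of each gene in the summed per-length level of the KLF, SP and EGR families, in percent, for 1 library per bar. KLF5 and KLF6 take 27.7% and 30.2% of the KLF bar in CARM1 KO cells against 12.8% and 14.3% in parental cells, SP1 and SP3 hold most of both SP bars, and EGR2 takes the place of EGR1 as the larger part of the EGR bar.

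Genes that act with the family were taken from 10 lists. The shares over all genes tested, 12.8% higher and 11.7% lower, stand beside the count of each list, and no list was tested against them. Of the 13 cofactors that KLF and SP proteins recruit, 12 were within 3-fold and KAT2B, an acetyltransferase that works with EP300, was 3.13-fold higher (95% interval 2.71 to 3.63). EP300 was 2.03-fold lower, with 1336 and 674 reads. None of the 6 tested binders of GC-rich sites outside the family, such as ZNF148 and MAZ, passed 3-fold, and none of the 5 genes of ubiquitin ligases that act on KLF proteins did. WT1, which binds EGR-type sites, had 8 and 1 reads and was too low to test.

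The regulators of the EGR genes were all within 3-fold, 8 of 8. SRF, which binds CArG boxes, had 1702 and 681 reads and was 2.56-fold lower (95% interval 2.34 to 2.80). NAB2, a corepressor of EGR proteins and itself an EGR target, had 2123 and 1336 reads, a 1.63-fold lower level, and NAB1 had 1961 and 2551 reads, a fold change of 1.27. The immediate-early genes, which share the fast induction of EGR1, were called in both directions. Of 18 tested, JUN, CCN1 and DUSP1 were higher, by 5.96, 4.20 and 3.01-fold, and BTG2, ZFP36 and JUNB were lower, by 7.34, 4.10 and 3.29-fold. FOS had 116 and 41 reads, under the threshold, and the median log2 fold change of the list was -0.25 against -0.03 over all genes.

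The glucocorticoid response list had 2 genes higher and 2 lower of 5 tested. NR3C1, the glucocorticoid receptor, had 792 and 3979 reads, a 4.91-fold higher level. Its response genes PER1 and FKBP5 were 6.75-fold and 3.50-fold lower, beside KLF9 and KLF15 among the members, while DUSP1 was higher and TSC22D3 had 163 and 207 reads. In the TGF-beta early response list ID3 was 9.10-fold lower and 5 genes were within 3-fold. In the ERK5 and MEF2 pathway, which lies upstream of KLF2 and KLF4, MEF2C was 7.73-fold lower, with 2220 and 294 reads, and the other 6 genes were within 3-fold.

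Among 20 genes with well-known KLF, SP or EGR sites, 5 of the 18 tested were higher and 1 was lower. ICAM1, an adhesion molecule, was 6.21-fold higher, and F3, the tissue factor gene, went from 7575 to 45073 reads, which was 5.81-fold higher. S1PR1 and PDGFA were 5.15-fold and 4.61-fold higher. FGFBP1 had 1 and 22 reads, a ratio with an interval that began at 3.47. NOS3 was 3.78-fold lower, and the cell cycle genes CCND1, CCNB1, BIRC5, TK1 and TYMS were within 3-fold. Of the partners of KLF4 in pluripotent cells, SOX2 had 55 and 3 reads and TFCP2L1 had 13 and 100, while POU5F1 had 19 and 8.

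**Figure D4:**
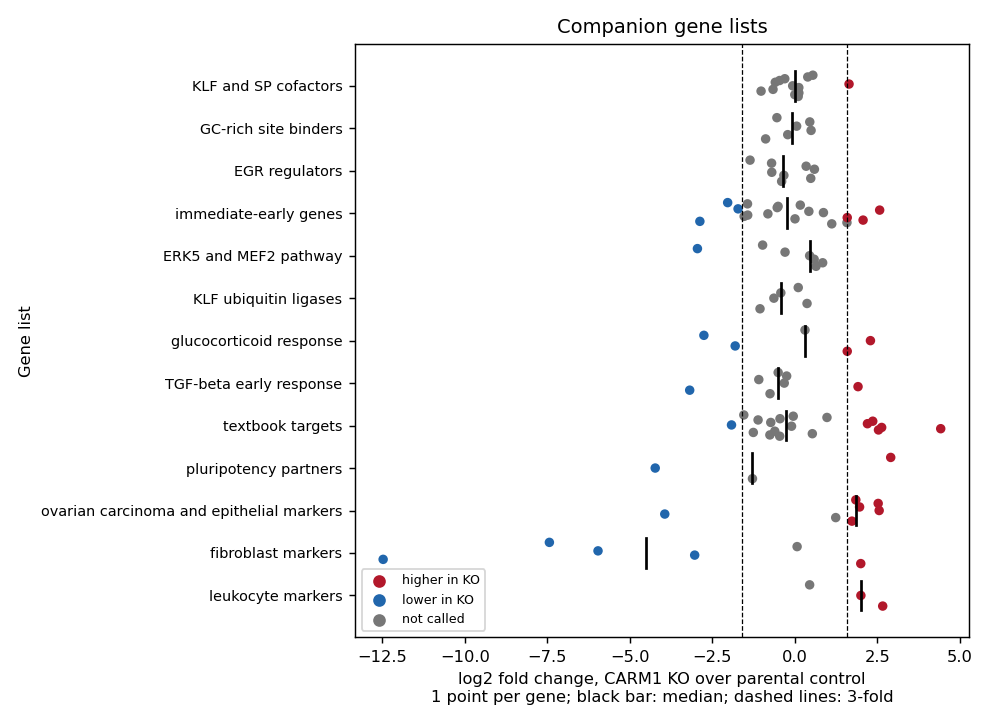
Log2 fold change of each tested gene in the lists of companion genes and cell markers, CARM1 KO over parental control, with the median of each list as a black bar and 3-fold as dashed lines. The cofactor, GC-rich site binder, EGR regulator and ubiquitin ligase genes lie within 3-fold apart from KAT2B, and the immediate-early genes lie on both sides.

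KLF5 and KLF12 are neighbours on chromosome 13, with 609 kb between them and 0 expressed protein-coding genes in the gap, and both were higher. The genes named next were chosen after their values were seen. On the other side of KLF5, PIBF1, DIS3, BORA and MZT1 had fold changes of 1.27, 1.05, 0.511 and 1.21, and on the other side of KLF12, TBC1D4, COMMD6 and UCHL3 had fold changes of 1.34, 1.09 and 1.42. Further out beyond KLF12, LMO7 was 15.4-fold higher, with 517 and 8152 reads, and KCTD12 was 3.06-fold higher, with 255 and 800 reads. PCDH9, on the far side of KLF5, was lower, with 13727 and 182 reads. The genes nearest the pair were thus within 3-fold, and called genes lay further out on both sides. The median log2 fold change of the 10 nearest expressed protein-coding genes was 0.31 for KLF5 and 0.39 for KLF12. Of the 10, 2 were higher and 1 was lower for KLF5, and 3 were higher and 0 lower for KLF12. KLF5 and KLF12 are each among the 10 of the other. A difference shared by the region was not tested.

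The 10 nearest expressed protein-coding genes of each called member had median log2 fold changes between -0.34 and 0.76, and 7 of the 10 medians had the sign of the member. Each higher member exceeded its median by 1.18 (KLF13) to 2.53 (SP5), and each lower member fell short of it, by the most for EGR1, at -2.86. These members were chosen for differing more than 3-fold, so a gap from medians in this range follows from that choice. None of the 10 neighbours of EGR1 was called, and they ran from REEP2 at 0.531 to CTNNA1 at 1.37 times the parental level. Near KLF9, 4 of 10 neighbours were higher and TRPM3 was lower, with 603 and 21 reads. KLF6 had the highest median, 0.76, with PFKP, AKR1E2 and AKR1C3 higher and ASB13 lower. DNA copy number was not analysed here.

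**Figure D5:**
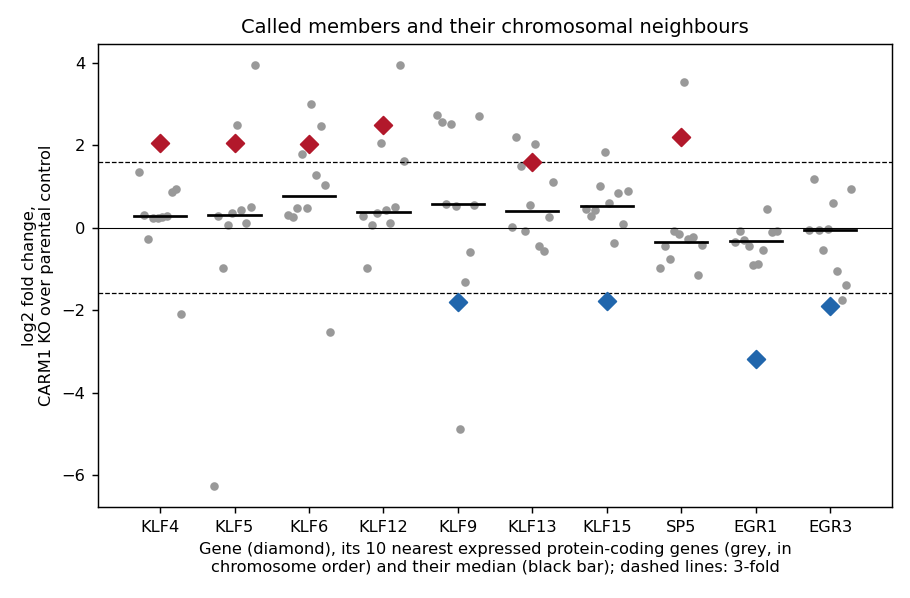
Log2 fold change of the 10 called members (diamonds) and of the 10 nearest expressed protein-coding genes of each (grey points, in chromosome order), with the median of the neighbours as a black bar and 3-fold as dashed lines. The gap between a diamond and the bar of its neighbours is smallest for KLF13, at 1.18. The diamonds were chosen as members past 3-fold and every bar lies within 3-fold, so a gap follows from that choice.

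The SP genes lie on the chromosomes of the HOX clusters, whose values are set beside them here. SP2 and SP6 lie 600 kb and 673 kb from the HOXB cluster, in which 7 of 9 tested genes were lower with a median log2 fold change of -5.05, while the log2 fold change of SP2 was -0.24 and that of SP6 was 1.04. SP1 and SP7 lie 522 kb and 594 kb from the HOXC cluster, in which 4 of 8 genes were lower and 2 were higher. SP9, SP3 and SP5 lie 1754 kb, 2127 kb and 5383 kb from the HOXD cluster, in which 5 of 7 genes were higher with a median log2 fold change of 1.77, and the log2 fold change of SP5 was 2.19 and that of SP3 was 0.09. SP4 and SP8 lie 5578 kb and 6306 kb from the HOXA cluster, in which 6 of 10 were lower.

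Annotated copies and overlapping genes took few reads. Of the 11 family pseudogenes counted, 10 had 0 reads in both libraries and KLF3P1 had 8 in each. SP2-AS1, on the strand opposite to SP2, had 58 and 130 reads, more than SP2 itself, and MYOSLID, opposite to KLF7, had 114 and 99. ERICH2-DT, opposite to SP5, had 10 and 4 reads beside the 3 and 14 of SP5. KLF3-AS1 had 4 and 2 reads. The use of strand in the counting is not stated, so the reads of SP2, KLF7, SP5 and KLF3 cannot be told apart from those of these partners where they overlap.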

How the data were processed

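RNA-Seq counts of 1 parental control and 1 CARM1 KO library of A1847 cells were used. Reads had been aligned by the authors with bowtie2 to hg19, and RSEM had estimated read counts per Ensembl gene (version 1.2.3 in the submitters' processing notes, another in the methods). The deposited counts are whole numbers with no normalization. The annotation release and the use of strand are not given in the sources used here. RSEM divides reads among genes that share sequence, so counts of close copies are uncertain.

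Identifiers were matched to GENCODE for GRCh37, the same assembly as hg19, and 55501 of 57736 were found. The members and lists were chosen with earlier results of these data known. Counts were scaled by TMM in edgeR 4.0.16 under R 4.3.3, over genes with at least 1 read. A fold change is CARM1 KO over parental control, with 0 reads set at 3 and an exact 95% binomial interval (scipy 1.17.1). A gene was called past 3-fold if the libraries summed to at least 10 reads, 18563 genes being tested. With 1 library per group, edgeR's quasi-likelihood fit had no residual degrees of freedom and was not run. The study used edgeR with a false discovery rate under 0.05 and a fold change above 3, without a dispersion in its text, so edgeR's exact test with assumed coefficients of variation of 0.12 and 0.4 was an alternative. The others were other scalings, including DESeq2 1.42.0 size factors, other minimums of reads, 2-fold, and an interval wholly past 3-fold. The scaling and calling steps were also run on simulated counts in which few genes differed, which checks the code and not the calls or intervals given here. The depth was 30741953 reads (parental) and 32300391 reads (CARM1 KO), and intervals cover counting error only, since reads without molecular identifiers are not independent molecules.

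Levels per length were computed from the counts and the merged exons of all transcripts of a gene, which lowers the value of genes with many transcripts. Neighbours were the 5 nearest protein-coding genes with at least 50 reads on each side. Upstream sequences were read from GRCh37. The text names all members, CARM1, overlapping genes and pseudogenes, the nearest HOX clusters, NAB1, NAB2, SRF, WT1, and up to 6 called genes per list, by size of change. Other genes named were chosen after their values were seen. Some genes of the lists are not reported here.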

Additional observations from a re-analysis of the deposited data

How the results depend on the processing

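Requiring the whole counting interval past 3-fold gave 3 members higher and 1 lower, and 1292 and 1234 of all genes. The exact test with a coefficient of variation of 0.4 gave 0 members higher and 1 lower, EGR1, and 388 and 808 of all genes; at 0.12 it gave 5 and 4 members. At 2-fold 3631 genes were higher and 3537 lower, with 9 and 5 members. With at least 50 reads 1219 genes were lower, and 5 members were higher and 3 lower. Among protein-coding genes only, a background added after the values were seen, 1303 were lower. With library size only or the reads of protein-coding genes, KLF13 was under the threshold and 5 members were higher; upper-quartile and DESeq2 scaling gave the 6 and 4 of TMM, and with at least 1 read SP9 was also higher. The other scalings moved the median log2 fold change of the members, 0.53, to between 0.46 and 0.57, since each scaling adds 1 constant, from -0.07 to 0.03, to the log2 fold change of every gene. CARM1 stayed between -1.46 and -1.36 on the log2 scale. No paired analysis was possible because each group holds 1 library, and no library could be left out.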
